A study of Mus musculus with 2 samples.

Results

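Foxp3-positive regulatory T cells were examined in the liver of mice with diet-induced steatohepatitis. They were sought among barcodes in which 200 or more genes were detected and mitochondrial genes gave no more than 10% of the UMIs (unique molecular identifiers, each standing for 1 captured transcript). Members were chosen by their measured Foxp3 and lineage UMIs: a barcode was taken when it held at least 1 Cd3 UMI and at least 1 Foxp3 UMI, at most 1 Cd8 UMI, no Cd79a UMI and at most 1 C1q UMI. This gate held 73 of 13374 deposited barcodes, with 51 in the Trem2-/- library and 22 in the Trem2+/+ library. They were 73 of 1526 T cells that passed the same lineage gate.

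The study transplanted marrow of either Trem2-/- or Trem2+/+ littermate donors into lethally irradiated male C57Bl6/J mice, so that in the Trem2-/- group Trem2 was missing from donor-derived blood cells and not from the rest of the recipient. Trem2 encodes a lipid-sensing receptor of macrophages. All mice had 6 weeks of recovery and then 4 weeks of a diet deficient in methionine and choline, which causes steatohepatitis, and no group on a normal diet was analysed here. Live CD45-positive liver cells, that is leukocytes, of 4 mice per genotype were sorted, pooled in equal parts and run as 1 library of 5′ single-cell sequencing each. The age of the mice and the share of recipient T cells that outlived irradiation are not given in the sources used here. With 1 pooled library per genotype no test between genotypes was possible, and every interval below is a 95% interval for counting error only, which leaves out the spread between mice.

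Regulatory T cells are the CD4 T cells that restrain other immune cells. The transcription factor Foxp3 fixes their identity, high surface CD25 (Il2ra) lets them take up interleukin 2, and CTLA-4 strips costimulatory ligands from antigen-presenting cells. In non-lymphoid tissue they often take on an effector form, marked in mice by Klrg1, Tnfrsf9, Ccr8, Batf and the growth factor amphiregulin (Areg), which is known for a part in tissue repair.

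The 2 libraries held 5978 Trem2-/- and 6598 Trem2+/+ barcodes past the filter. Members had a median of 3893 UMIs in Trem2-/- and 2755.5 in Trem2+/+, and the summed depth was 295596 and 106036 UMIs. The deepest cell held 11.5% of these sums in Trem2-/- and 15.9% in Trem2+/+. The genotype labels were checked by Trem2 in C1q-positive macrophages, which had a UMI in 69 of 612 Trem2-/- and 727 of 1100 Trem2+/+ cells, or 33.5 and 577 CPM (counts scaled so that every class has the same total). No Trem2 UMI was seen in any member. The libraries shared 56 barcodes, none of which was a member.

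UMIs of other lineages were counted in the members. Monocytes left out, at least 3 UMIs of another type's marker list were held by 2 Trem2-/- members and 1 Trem2+/+ member. By a separate rule, 25 Trem2-/- and 9 Trem2+/+ members held no UMI of Cd8, C1q, Lyz2, S100a8, S100a9, Alb, Kdr or Ncr1. Below, no UMI of other lineages means no UMI of these genes, and other markers were not checked for it. NK cell, B cell, gamma-delta T cell and platelet or erythroid marker lists summed to between 0 and 4 UMIs over all members of a library, and Ncr1, Eomes, Trdc and Trgv2 were at 0 in both. The gate itself limited part of these sums. The B cell list holds Cd79a, which the gate set to 0. The macrophage list holds C1qa, C1qb and C1qc, which the gate held to at most 1 UMI per member. Macrophage markers came to 9 UMIs in Trem2-/- and 9 in Trem2+/+ members, monocyte markers to 50 and 87 (in 24 of 51 and 14 of 22 members), neutrophil markers to 5 and 2, endothelial markers to 8 and 0 and hepatocyte markers to 9 and 1. Dendritic cell markers were at 0 in Trem2-/- members. In Trem2+/+ members they came to 22 UMIs, all of Cd209a and all in 1 barcode. That barcode, with 12697 UMIs or 11.97% of the Trem2+/+ sum, also held 7 macrophage and 50 monocyte marker UMIs. Foxp3 UMIs were rare in cell types that should lack the gene. One was found in 3 of 2340 Trem2-/- and 7 of 2913 Trem2+/+ B cells, macrophages, neutrophils, monocytes and endothelial cells (0.128% and 0.240%, median depth 2542 and 2319 UMIs), and in 0.437% of 687 Trem2-/- and 0.847% of 472 Trem2+/+ Cd8 T cells.

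Just inside the gate, 19 Trem2-/- and 7 Trem2+/+ members had exactly 1 Foxp3 UMI, and the highest had 9 and 11. A Cd4 UMI, which the gate did not ask for, was seen in 36 of 51 Trem2-/- and 11 of 22 Trem2+/+ members. The comparator was 342 Trem2-/- and 127 Trem2+/+ T cells that passed the same gate with no Foxp3 UMI and at least 1 Cd4 UMI (median 3653 and 3408 UMIs). They lie just outside the gate, at 0 Foxp3 UMIs, and a regulatory T cell whose Foxp3 transcript was not captured would be counted among them. Of the 4 markers Ctla4, Tnfrsf4, Tnfrsf18 and Il2ra, at least 3 were detected in 41 of 51 Trem2-/- members (80.4%, 66.9 to 90.2%) and in 15 of 22 Trem2+/+ members (68.2%, 45.1 to 86.1%). The same was true of 85 of 342 Trem2-/- comparator cells (24.9%, 20.4 to 29.8%) and 17 of 127 Trem2+/+ comparator cells (13.4%, 7.995 to 20.6%). It held for 16 of 687 Trem2-/- and 4 of 472 Trem2+/+ Cd8 T cells, and for 0 of the 655 and 0 of the 750 gated B cells.

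The markers of the label were present in both libraries. Ctla4 had a UMI in 48 of 51 Trem2-/- and 19 of 22 Trem2+/+ members, Ikzf2 in 43 and 16, Tnfrsf18 in 41 and 14, Tnfrsf4 in 39 and 14, and Il2ra in 28 and 11. In B cells, which should lack these genes, Ctla4 was seen in 10 of 655 Trem2-/- and 6 of 750 Trem2+/+ cells at a median of 2053 and 1830 UMIs, and Ikzf2 in 2 and 5 cells. With every cell thinned to 1000 UMIs, Ctla4 was still seen in 75.5% of Trem2-/- and 59.1% of Trem2+/+ members, against 30.3% and 25.4% of comparator cells.

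How common the cells were depended on the denominator. Members made up 0.853% (0.636 to 1.12%) of filtered Trem2-/- barcodes and 0.333% (0.209 to 0.504%) of filtered Trem2+/+ barcodes, a log2 ratio of 1.36 (0.64 to 2.07). Among T cells of the lineage gate the shares were 5.59% in Trem2-/- and 3.59% in Trem2+/+, with a log2 ratio of 0.64 whose interval (-0.07 to 1.34) held 0. Among members plus comparator, the share was 13.0% (9.82 to 16.7%) in Trem2-/- and 14.8% (9.49 to 21.5%) in Trem2+/+, a log2 ratio of -0.19 (-0.85 to 0.48). Such a share depends on depth, and the median depth of members was higher in Trem2-/-. With these cells thinned to 1000 UMIs, a Foxp3 UMI was left in 21 of 376 in Trem2-/- and 12 of 144 in Trem2+/+. The shares were then 5.59% (3.49 to 8.41%) and 8.33% (4.38 to 14.1%), a log2 ratio of -0.58. Among cells with no UMI of other lineages, the ratio of the unthinned share turned to 0.093. The comparator itself made up 5.72% of Trem2-/- and 1.92% of Trem2+/+ barcodes, so the higher share of members among all barcodes stood beside a higher share of Foxp3-negative Cd4-positive T cells. Each share comes from 1 pool of 4 sorted livers, and more T cells cannot be told apart from fewer other cells. The filtered barcodes were not leukocytes alone, since the endothelial gate held 536 in Trem2-/- and 372 in Trem2+/+.

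Genes were then set against the Foxp3-negative Cd4-positive T cells of the same library. Since Foxp3 itself chose the members, this contrast is a description with no test. Of 3030 genes with at least 30 UMIs over both classes in each library (gate genes left out), 222 were at least 1.5-fold higher in members in both libraries (7.33% of genes tested) and 173 at least 1.5-fold lower in both (5.71%). With median-of-ratios scaling in place of CPM the counts were 177 and 201. The median log2 ratio over all these genes was 0.09 in Trem2-/- and 0.07 in Trem2+/+. Higher and lower below mean past 1.5-fold in both libraries. The counts of each gene list below are to be read beside the 7.33% and 5.71% over all genes tested.

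**Figure D1:**
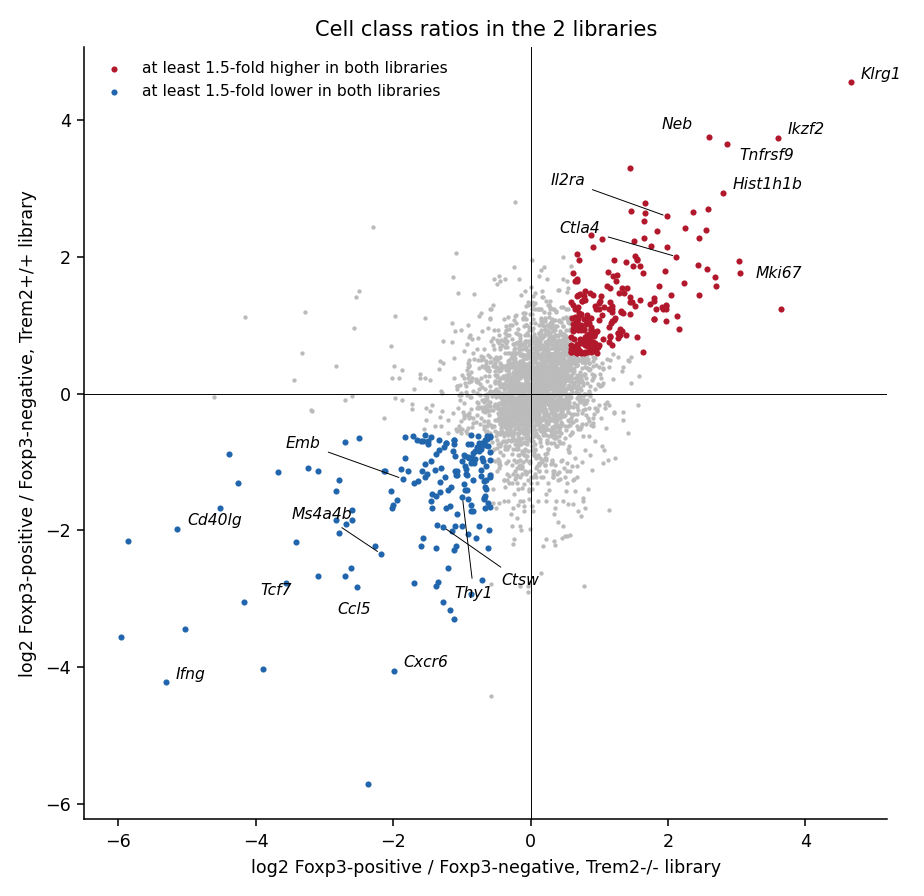
Log2 ratio of Foxp3-positive over Foxp3-negative Cd4-positive T cells for the genes tested, in the Trem2-/- library (x axis) and the Trem2+/+ library (y axis). Red and blue points are the 222 genes at least 1.5-fold higher and the 173 at least 1.5-fold lower in both libraries; Klrg1 lies at 4.66 and 4.56, and Ifng at -5.31 and -4.23.

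Of 11 identity genes tested, 9 were higher and 1 lower, with a median log2 ratio of 1.84 in Trem2-/- and 1.77 in Trem2+/+. Ikzf2, which encodes the regulatory T cell transcription factor Helios, had 798 CPM in Foxp3-positive and 66.0 CPM in Foxp3-negative cells of the Trem2-/- library, against 698 and 52.1 CPM in the Trem2+/+ library. Its log2 ratio was 3.60 (3.24 to 3.96) in Trem2-/- and 3.74 (3.08 to 4.45) in Trem2+/+. Ctla4 had 1725 and 396 CPM in Foxp3-positive and Foxp3-negative Trem2-/- cells, against 1377 and 343 CPM in Trem2+/+ cells, with log2 ratios of 2.12 and 2.01. The interleukin 2 receptor chain gene Il2ra had 311 and 78.8 CPM in Foxp3-positive and Foxp3-negative Trem2-/- cells, against 169.8 and 28.1 CPM in Trem2+/+ cells. The interval of the ratio lay above 0 for all 3 genes in both libraries. Capg, an actin-capping protein, was also higher, by 1.64 and 1.77 on the log2 scale in Trem2-/- and Trem2+/+, as was Izumo1r, the folate receptor 4 gene, by 1.97 and 1.30. The tetraspanin gene Cd81 was higher by 2.56 and 2.39, and Nt5e, the CD73 ectoenzyme, by 0.82 and 0.86 with both intervals holding 0. Rgs1, a regulator of G protein signalling, was the 1 lower gene of the list, with log2 ratios of -0.91 and -0.93. Among identity genes too sparse to count, Ikzf4 had 22 UMIs in Trem2-/- and 4 in Trem2+/+ members, and Lrrc32, which displays latent TGF-beta, had 23 and 5.

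Tnfrsf4 (OX40) had 873 CPM in Foxp3-positive and 244 CPM in Foxp3-negative Trem2-/- cells, against 566 and 108 CPM in Trem2+/+ cells. Tnfrsf18 (GITR) had 572 and 209 CPM in Foxp3-positive and Foxp3-negative Trem2-/- cells, against 499.8 and 186 CPM in Trem2+/+ cells. For Tnfrsf9 (4-1BB) the levels were 578 and 79.5 CPM in Trem2-/- and 377 and 30.1 CPM in Trem2+/+ cells, and the log2 ratios 2.86 (2.51 to 3.22) and 3.65 (2.76 to 4.61). All 3 genes lie on chromosome 4 (mm10), with Tnfrsf4 at chr4:156013843-156016612 and Tnfrsf18 at chr4:156026164-156028895, 9551 bp apart on the plus strand, and Tnfrsf9 at chr4:150914562-150946102. Tnfrsf1b, the TNF receptor 2 gene, was higher by 1.18 in Trem2-/- and 1.28 in Trem2+/+, and Cd27 by 1.52 and 2.01. Of 15 genes of TNF receptors and costimulation tested, 5 were higher and 3 lower, with medians of 0.19 in Trem2-/- and 0.34 in Trem2+/+. The lower ones were Cd226, Slamf6 and Cd40lg, the ligand with which helper T cells license B cells. Cd40lg had 10.1 CPM in Foxp3-positive and 358 CPM in Foxp3-negative Trem2-/- cells, against 66.0 and 261 CPM in Trem2+/+ cells. The costimulatory receptor gene Icos had log2 ratios of 0.19 (-0.13 to 0.50) in Trem2-/- and 1.08 (0.54 to 1.60) in Trem2+/+. In the 9 Trem2+/+ members left when barcodes with any UMI of other lineages were dropped, Tnfrsf18 turned to -0.36.

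The 250 bases before the start of 4 of these genes are printed below to show what the promoters of the gate gene and of 3 receptors that were high together hold. They are RefSeq starts in GRCm38.p6, and capitals mark letters that match a searched motif on either strand, overlaps allowed. The motifs were the forkhead core GTAAACA, the STAT site TTCNNNGAA, the AP-1 site TGANTCA and the NF-kB site, found in 3.17%, 7.02%, 6.75% and 7.25% of 32851 promoter windows of this length. For Foxp3 and Tnfrsf9, which have a pair of starts in the table, the downstream start is shown; the windows of their upstream starts (chrX:7579426-7579675 and chr4:150919905-150920154) held none of the 4 motifs.
Foxp3, chrX:7580233-7580482, plus strand: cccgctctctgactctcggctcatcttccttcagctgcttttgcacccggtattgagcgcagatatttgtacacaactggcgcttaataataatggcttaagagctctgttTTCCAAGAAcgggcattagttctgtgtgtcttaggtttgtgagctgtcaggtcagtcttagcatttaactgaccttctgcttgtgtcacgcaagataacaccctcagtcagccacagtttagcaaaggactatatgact
Il2ra, chr2:11642542-11642791, plus strand: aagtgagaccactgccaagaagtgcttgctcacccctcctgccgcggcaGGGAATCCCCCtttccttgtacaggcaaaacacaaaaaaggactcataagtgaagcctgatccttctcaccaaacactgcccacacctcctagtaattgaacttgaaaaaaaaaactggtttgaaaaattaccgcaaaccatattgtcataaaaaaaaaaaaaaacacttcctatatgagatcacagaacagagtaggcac
Tnfrsf18, chr4:156026072-156026321, plus strand: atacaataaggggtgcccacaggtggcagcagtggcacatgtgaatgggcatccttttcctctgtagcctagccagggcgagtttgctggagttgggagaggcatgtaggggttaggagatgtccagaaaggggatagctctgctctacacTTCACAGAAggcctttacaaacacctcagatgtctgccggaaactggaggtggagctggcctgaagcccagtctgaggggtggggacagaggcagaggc
Tnfrsf9, chr4:150927749-150927998, plus strand: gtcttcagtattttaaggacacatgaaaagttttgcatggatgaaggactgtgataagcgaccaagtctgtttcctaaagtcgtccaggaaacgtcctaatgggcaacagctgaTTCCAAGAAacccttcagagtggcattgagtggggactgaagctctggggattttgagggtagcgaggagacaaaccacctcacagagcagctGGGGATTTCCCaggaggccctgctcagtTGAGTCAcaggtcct
Foxp3 and Tnfrsf18 held 1 STAT match each. Il2ra held 2 overlapping NF-kB matches, and Tnfrsf9 held 2 NF-kB, 1 STAT and 1 AP-1 match. The forkhead letters were in none of the printed windows, nor were any of the 4 motifs in the windows of Ctla4 or Tnfrsf4. A match is a description of letters and not of binding.

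**Figure D2:**
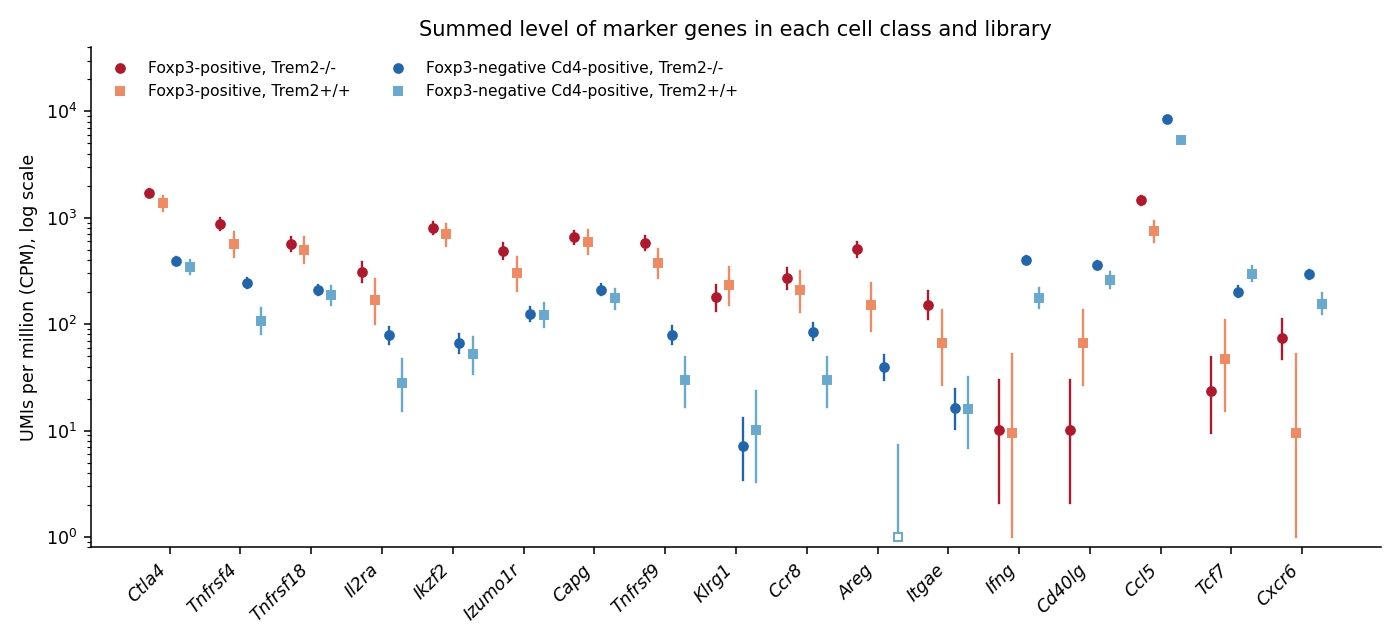
Summed level in CPM (log axis) of marker and effector genes in Foxp3-positive and Foxp3-negative Cd4-positive T cells of each library, with 95% counting intervals cut off at 1 CPM and an open symbol for a gene with no UMI. Ctla4 lies at 1725 and 1377 CPM in Foxp3-positive cells of Trem2-/- and Trem2+/+, above 396 and 343 CPM in Foxp3-negative cells, and Ifng, Cd40lg, Ccl5 and Cxcr6 lie the other way round.

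Genes of the tissue effector form followed. Of 28 tested, 9 were higher (Klrg1, Batf, Ccr8, Gata3, Tigit, Tnfrsf9, Fgl2, S100a10 and Hopx) and 1 lower, with a median log2 ratio of 0.49 in Trem2-/- and 0.69 in Trem2+/+. Klrg1, a lectin-like receptor for cadherins, was 179 CPM in Foxp3-positive and 7.10 CPM in Foxp3-negative Trem2-/- cells, against 236 and 10.0 CPM in Trem2+/+ cells. The log2 ratios were 4.66 (3.67 to 5.80) and 4.56 (3.15 to 6.30). It was seen in 19 of 51 Trem2-/- and 7 of 22 Trem2+/+ members, against 9 of 342 and 4 of 127 comparator cells, and in 6.405% and 6.992% of Cd8 T cells. The chemokine receptor gene Ccr8 was higher by 1.67 (1.24 to 2.09) in Trem2-/- and 2.79 (1.77 to 3.84) in Trem2+/+, where 1 cell of 22 gave 54.5% of its UMIs. Gata3, the type 2 transcription factor also used by tissue regulatory T cells, was higher by 1.25 and 1.74. Batf, a transcription factor that drives their tissue program, was higher by 0.77 and 0.95, and turned to -0.16 in Trem2+/+ without the 5% deepest T cells. Areg missed the count minimum in the comparator of the Trem2+/+ library, yet its members held 150 UMIs in Trem2-/- and 16 in Trem2+/+. It had 507 CPM in Foxp3-positive and 39.75 CPM in Foxp3-negative Trem2-/- cells, and 151 CPM in Foxp3-positive Trem2+/+ cells, where no UMI was found in 127 Foxp3-negative cells. With 3 counts assumed over those cells, its log2 ratio would be 4.65, which is not a lower limit. The integrin gene Itgae (CD103), likewise not counted, had 152 and 16.3 CPM in Foxp3-positive and Foxp3-negative Trem2-/- cells, against 66.0 and 16.04 CPM in Trem2+/+ cells. The residency-linked chemokine receptor gene Cxcr6 was the lower gene, with 22 UMIs in 51 Trem2-/- and 1 UMI in 22 Trem2+/+ members (log2 ratio -1.99 and -4.05).

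Suppressive mediators and inhibitory receptors were mixed. Of 10 suppressive genes tested, 4 were higher and 1 lower. Fgl2, a secreted fibrinogen-like suppressor, was higher by 1.52 in Trem2-/- and 1.29 in Trem2+/+, and Gzmb, a cytotoxic protease, by 1.54 and 0.83, with 43.0% and 41.2% of its UMIs in 1 cell. Without barcodes holding a UMI of other lineages, the Trem2+/+ ratios of both turned, to -1.43 for Fgl2 and -1.55 for Gzmb. Transforming growth factor gene Tgfb1 stayed within 1.5-fold in Trem2-/-, at 392 and 301 CPM in Foxp3-positive and Foxp3-negative cells, against 415 and 269 CPM in Trem2+/+. Il10 was seen in 5 of 51 Trem2-/- and 4 of 22 Trem2+/+ members, against 29 of 342 and 5 of 127 comparator cells. Il2, which regulatory T cells are known not to make, was seen in 0 of 51 and 0 of 22 members, against 27 of 342 and 7 of 127 comparator cells. Taken as 3 cells of the total, a count of 0 allows a share of members with a UMI of up to 5.88% and 13.6%, and the exact intervals reach 6.98% and 15.4%. Among 7 inhibitory receptor genes, Ctla4, Tigit and Tox were higher and Cd96 was lower. Tigit, a receptor for the poliovirus receptor, had 622 and 251 CPM in Foxp3-positive and Foxp3-negative Trem2-/- cells, against 387 and 166 CPM in Trem2+/+ cells. Pdcd1 (PD-1) was 94.7 and 153 CPM in Foxp3-positive and Foxp3-negative Trem2-/- cells, against 160.3 and 110.2 CPM in Trem2+/+ cells.

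Genes of conventional effector T cells were low. None of 16 tested was higher and 12 were lower, with a median log2 ratio of -3.38 in Trem2-/- and -2.05 in Trem2+/+ (genes with no UMI in members taken at their bound). With comparator cells matched on UMIs, which left 7 of these genes tested, the Trem2-/- median was -0.27. Ifng, the type 1 cytokine gene, had 3 UMIs in 51 Trem2-/- and 1 UMI in 22 Trem2+/+ members, or 10.1 and 9.43 CPM, against 402 and 176 CPM in comparator cells. The chemokine gene Ccl4 was 16.9 CPM in Foxp3-positive and 1057 CPM in Foxp3-negative Trem2-/- cells, and 0 UMIs against 335 CPM in Trem2+/+ cells. Ccl5 was not absent, at 1461 CPM in Foxp3-positive and 8407 CPM in Foxp3-negative Trem2-/- cells, against 754 and 5356 CPM in Trem2+/+ cells. Tnf had log2 ratios of -3.67 in Trem2-/- and -1.15 in Trem2+/+. The lymphocyte membrane gene Ms4a4b, also lower, had -2.18 and -2.34, Thy1 -0.99 and -1.51, and the cathepsin gene Ctsw -1.27 and -1.95. Hcst, the DAP10 adaptor gene, had -0.96 and -1.41, and the adhesion gene Emb -1.87 and -1.24. NK, innate and gamma-delta markers moved with this pattern, with 113 NK and 147 gamma-delta marker UMIs in Trem2-/- comparator cells, and 28 and 9 in Trem2+/+ comparator cells. Their part in the result was not tested.

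Genes of resting and recirculating T cells were low too. Of 16 tested, 10 were lower and none higher, with medians of -0.92 in Trem2-/- and -1.34 in Trem2+/+. Tcf7, a factor of naive and memory T cells, was 23.7 CPM in Foxp3-positive and 202 CPM in Foxp3-negative Trem2-/- cells, against 47.2 and 299 CPM in Trem2+/+ cells. Klf2, which controls exit from tissue, had log2 ratios of -0.92 in Trem2-/- and -1.41 in Trem2+/+, its target S1pr1 -0.72 and -1.20, and the survival gene Bcl2 -3.42 and -2.18. The lymph node homing receptor gene Ccr7 was seen in 6 of 51 Trem2-/- and 3 of 22 Trem2+/+ members, against 49 of 342 and 31 of 127 comparator cells. In Trem2-/- its level was near that of the comparator, at 108 CPM in Foxp3-positive and 119 CPM in Foxp3-negative cells. In Trem2+/+ the levels were 47.2 and 188 CPM.

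The counts in this paragraph stand beside 7.33% higher and 5.71% lower of all genes tested. Among 26 transcription factor genes, 4 were higher (Ikzf2, Batf, Gata3 and Foxo1) and 7 lower (Ikzf1, Tbx21, Satb1, Tcf7, Lef1, Klf2 and Runx3). Of 19 chemokine receptor and homing genes, Ccr8 and Itgav were higher, and Cxcr6, S1pr1 and the oxysterol receptor gene Gpr183 lower. Itgav, the alpha chain of integrins that release active TGF-beta, was higher by 1.65 in Trem2-/- and 2.29 in Trem2+/+. Of 21 cytokine receptor and STAT5 feedback genes, 1 was higher (Il2ra) and 4 were lower. Of 29 T cell receptor signalling genes, 7 were lower and none higher. Of 23 immediate-early genes, 8 were lower and none higher, with medians of -0.82 and 0.00. Interferon-stimulated genes had 1 of 27 higher and 3 lower. NF-kB genes had 1 of 18 each way, heat shock genes 0 of 15 higher and 2 lower, lipid and sterol genes 0 of 11 either way, and class I antigen presentation genes 0 of 18. Of 11 glycolysis genes, Tpi1, Pkm and Mif were higher.

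**Figure D3:**
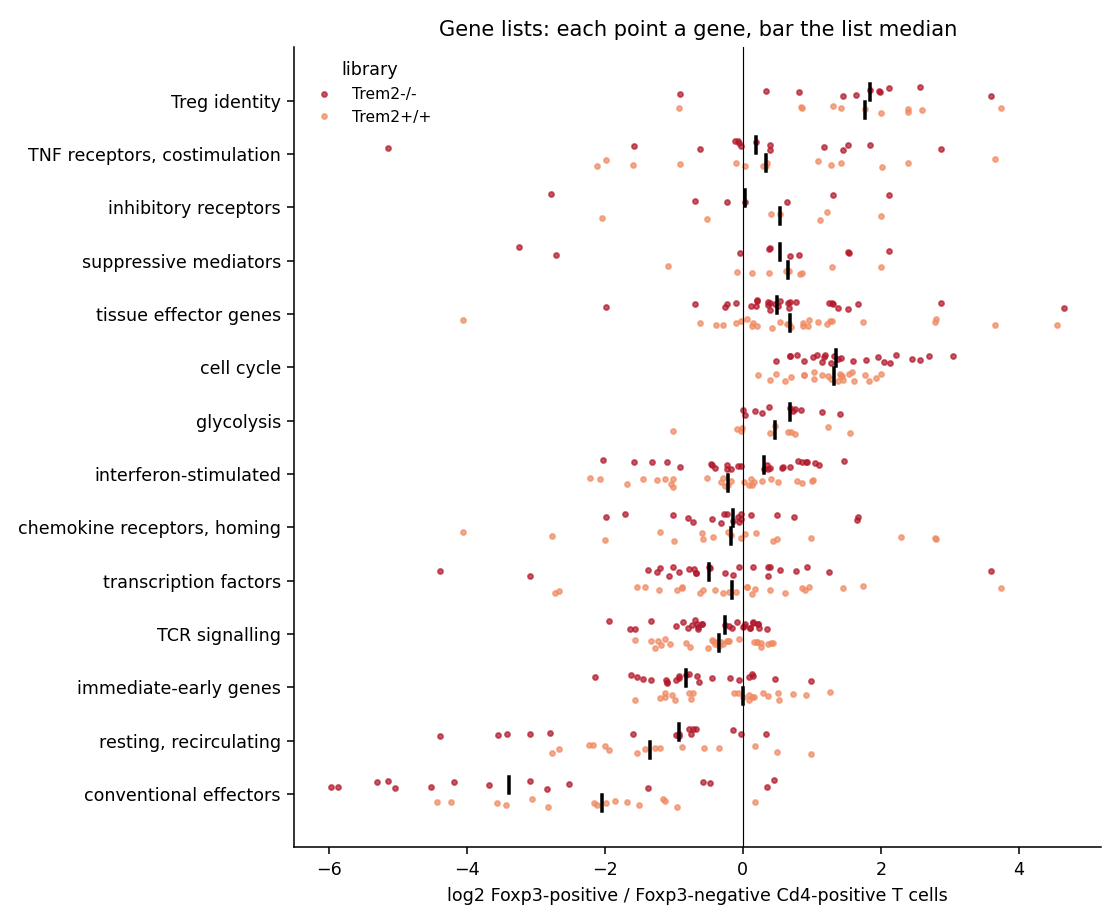
Log2 ratio of Foxp3-positive over Foxp3-negative Cd4-positive T cells for each tested gene of 14 lists, red for the Trem2-/- library and orange for the Trem2+/+ library, with black bars at the list medians. The identity list has medians of 1.84 and 1.77, the cell cycle list 1.35 and 1.32, and the conventional effector list -3.38 and -2.05.

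Cell cycle genes were higher in sum, and a few cells carried the sum. Of 24 tested, 20 were higher and none lower, with medians of 1.35 in Trem2-/- and 1.32 in Trem2+/+. Mki67, a marker of dividing cells, was 447 and 53.9 CPM in Foxp3-positive and Foxp3-negative Trem2-/- cells, against 575 and 168 CPM in Trem2+/+ cells. An Mki67 or Top2a UMI was found in 18 of 51 Trem2-/- members (35.3%, 22.4 to 49.9%) and 8 of 22 Trem2+/+ members (36.4%, 17.2 to 59.3%), against 50 of 342 (14.6%, 11.05 to 18.8%) and 18 of 127 (14.2%, 8.62 to 21.5%) comparator cells. Members with such a UMI were deeper, at a median of 5487.5 UMIs in Trem2-/- and 7603.5 in Trem2+/+, against 3884 and 2361.5 for members without. The 5 highest cells gave 75.5% of the cell cycle UMIs of Trem2-/- members and 89.8% of those of Trem2+/+ members. Thinned to 1000 UMIs, Mki67 was seen in 18.4% of Trem2-/- and 18.2% of Trem2+/+ members, against 2.14% and 8.20% of comparator cells. Without the deepest 5% of T cells the list median became 0.12 in Trem2-/- and -0.61 in Trem2+/+, over 15 genes. The replication histone genes Hist1h1b, Hist1h1d, Hist1h2ap and Hist1h2ae were among the 15 highest genes by the bound used for naming, from 5 to 7 Trem2-/- and 3 to 5 Trem2+/+ members.

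Of the 15 highest, Neb and Arl5a stood in none of the gene lists and are neighbours in the genome. Neb, the gene of the giant muscle filament protein nebulin (chr2:52136647-52378474, minus strand), was 145 and 24.1 CPM in Foxp3-positive and Foxp3-negative Trem2-/- cells, against 217 and 16.04 CPM in Trem2+/+ cells. Arl5a, a small GTPase gene (chr2:52397951-52424901, minus strand, 19476 bp away), was 315 and 66.0 CPM in Foxp3-positive and Foxp3-negative Trem2-/- cells, against 226 and 42.1 CPM in Trem2+/+ cells. Neb had a UMI in 25 of 51 Trem2-/- and 8 of 22 Trem2+/+ members, and Arl5a in 35 and 14. Both were seen in 15 and 7. In B cells Neb was at 0 in both libraries, while Arl5a had 40.4 CPM in Trem2-/- and 43.4 CPM in Trem2+/+.

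The members were not uniform. Klrg1 and Itgae were seen together in 4 of 51 Trem2-/- members, Klrg1 alone in 15 and Itgae alone in 13, and in 1, 6 and 3 of 22 Trem2+/+ members. Ccr8 and Tnfrsf9 were seen together in 22 Trem2-/- and 4 Trem2+/+ members. Klrg1 came with Areg in 8 Trem2-/- and 4 Trem2+/+ members, and with Ikzf2 in 17 and 5. Il1rl1, the interleukin 33 receptor gene, was seen in 3 Trem2-/- and 0 Trem2+/+ members, and Pparg in 1 and 0. Cxcr3 was seen in 30 and 10, Gata3 in 19 and 6, and Tbx21 in 13 and 1. Such counts depend on depth, and a gene not seen in a cell may still be expressed there. The 5′ reads also cover T cell receptor beta variable segments. A segment was seen in 40 Trem2-/- members, over 18 segments with the most frequent in 6 cells, and in 21 Trem2+/+ members, over 13 segments with the most frequent in 4 cells. Of these, 9 Trem2-/- and 2 Trem2+/+ members held 2 or more segments, and doublets were not called.

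Between the genotypes, Foxp3-positive cells were compared on 1236 genes whose UMIs in the 2 libraries came to 50 or more and whose mean level was 50 CPM or more. Of these, 166 were at least 1.5-fold higher in Trem2-/- (13.4% of genes tested) and 92 at least 1.5-fold lower (7.44%). With median-of-ratios scaling the counts were 139 and 116. In Foxp3-negative Cd4-positive cells, which are more numerous, the shares were 5.17% higher and 4.39% lower of 2918 genes. The counting interval held 0 for 84.4% of the genes tested and for 46.1% of those past 1.5-fold, so that many of these calls lie within counting error before any spread between mice. With 51 cells set against 22, and 1 library each, a genotype difference cannot be told apart from a difference between the pools. Counts of each gene list between genotypes below are to be read beside the 13.4% higher and 7.44% lower over all genes tested.

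Of 10 identity genes tested, 5 were past 1.5-fold higher in Trem2-/- members and none lower. They were Il2ra, Tnfrsf4, Izumo1r, Itgae and Rgs1. Of these, Rgs1 was lower in members than in Foxp3-negative cells of both libraries. The median log2 ratio of the list was 0.54, against 0.29 in Foxp3-negative cells and 0.05 over all genes tested in members. Ctla4 was 1725 CPM in Trem2-/- and 1377 CPM in Trem2+/+ members (0.33, 0.06 to 0.60), and Ikzf2 798 and 698 CPM (0.19, -0.19 to 0.59). Tnfrsf4 was 873 and 566 CPM (0.63, 0.22 to 1.06), Il2ra 311 and 169.8 CPM (0.87, 0.14 to 1.69), Izumo1r 487 and 302 CPM (0.69, 0.13 to 1.29) and Itgae 152 and 66.0 CPM (1.21, 0.05 to 2.60). Without barcodes holding an Mki67 or Top2a UMI, Ctla4 turned to -0.11 and Il2ra had 0.24, and with no UMI of other lineages Izumo1r had 0.0045. Tnfrsf4 had 0.36 in members with at least 2 Foxp3 UMIs. Tnfrsf4 and Il2ra were higher in Trem2-/- comparator cells as well, by 1.17 and 1.49 on the log2 scale.

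Nkg7, a granule membrane gene of cytotoxic lymphocytes, gave the highest ratio by the bound used for naming. It had 710 CPM in Trem2-/- and 28.3 CPM in Trem2+/+ members, from 210 and 3 UMIs, a log2 ratio of 4.65 (3.08 to 6.94). A UMI was seen in 24 of 51 Trem2-/- and 1 of 22 Trem2+/+ members, and the highest Trem2-/- cell gave 23.3% of the UMIs. Thinned to 1000 UMIs, 13 of 49 and 0 of 22 members had one. In Foxp3-negative cells the level was 1059 CPM in Trem2-/- and 609 CPM in Trem2+/+ (0.80, 0.62 to 0.98), and in B cells 24.6 and 23.5 CPM. NK and ILC1 markers in the same members summed to 4 UMIs in Trem2-/- and 0 in Trem2+/+. Cd8 UMIs summed to 3 and 1, but the gate itself allowed at most 1 per member. Nkg7 was seen beside Ccl5 in 13 and beside Gzmb in 12 of the 51 Trem2-/- members. Ccl5 was 1461 CPM in Trem2-/- and 754 CPM in Trem2+/+ members (0.95, 0.61 to 1.32), with 35.2% of the Trem2-/- UMIs in 1 cell, and in comparator cells its ratio was 0.65. Gzmb was 362 and 160.3 CPM (1.17, 0.43 to 2.01).

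Of 26 tissue effector genes, 8 were higher in Trem2-/- members and 1 lower, with a median of 0.29 (0.34 in Foxp3-negative cells). Areg was 507 CPM in Trem2-/- and 151 CPM in Trem2+/+ members (1.75, 1.003 to 2.59). It came from 19 of 51 and 5 of 22 cells, and 1 Trem2-/- cell gave 43.3% of its UMIs; with at least 2 Foxp3 UMIs per member the ratio was 0.49. Hopx, a small homeodomain protein gene of long-lived T cells, was 352 and 113 CPM (1.64, 0.77 to 2.63), and S100a6, a calcium-binding protein gene, 2625 and 1330 CPM (0.98, 0.72 to 1.25). One cell gave 27.4% of the Trem2-/- S100a6 UMIs, and with no UMI of other lineages the S100a6 ratio was 0.058. Hopx and S100a6 were also higher in Trem2-/- comparator cells, by 1.12 and 0.75 on the log2 scale. Areg had 39.7 CPM in Trem2-/- comparator cells, from 12 cells, and no UMI in Trem2+/+ comparator cells. With 3 counts assumed in the latter, its log2 ratio there would be 2.72. Klrg1 was 179 and 236 CPM (-0.40, -1.11 to 0.35). Ccr2 was the lower gene, at 88.0 CPM in Trem2-/- and 406 CPM in Trem2+/+ members (-2.20, -2.97 to -1.47), and 26 of its 43 Trem2+/+ UMIs lay in the barcode with dendritic cell markers. Without that barcode the Trem2+/+ level was 182 CPM, and without all barcodes holding other-type markers Ccr2 missed the count minimum and had no ratio.

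Of 10 interferon-stimulated genes tested, 5 were past 1.5-fold higher and none lower, with a median of 0.71 in members and -0.07 in Foxp3-negative cells; the difference between these medians was not tested. With cells thinned to 1000 UMIs, 3 of the genes were left and their median in members was 0.058. Ly6a (Sca-1) was 883 and 358 CPM in members (1.30, 0.81 to 1.83), and its ratio in comparator cells was -0.03. Slfn2 had 0.86 (0.08 to 1.73), Ifi203 1.11 (0.08 to 2.31) and Igtp 1.02 (-0.01 to 2.23). Class I antigen presentation had 5 of 16 higher and none lower, among them the proteasome activator gene Psme2 at 616 and 330.1 CPM (0.90, 0.37 to 1.47). The Ly6a level rests on 38 UMIs in the Trem2+/+ members.

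Set beside the 13.4% higher and 7.44% lower of all genes tested, the counts of higher and lower genes in the other lists were 4 and 0 of 11 for TNF receptors and costimulation, 1 and 0 of 3 for inhibitory receptors, 3 and 0 of 7 for suppressive mediators, and 0 and 0 of 13 for transcription factors. They were 2 and 2 of 13 for homing genes, 3 and 0 of 5 for conventional effector genes, 3 and 1 of 16 for T cell receptor signalling, and 3 and 2 of 16 for immediate-early genes. For resting genes neither of 2, and for lipid and sterol genes not the 1 tested, was past it. Cytokine receptor genes had 1 each way of 10, NF-kB genes 2 and 0 of 8, glycolysis genes 2 and 0 of 8, and heat shock genes 3 and 0 of 8. The heat shock gene Hspe1, a mitochondrial chaperonin, was 308 CPM in Trem2-/- and 113 CPM in Trem2+/+ members (1.44, 0.57 to 2.45), and the mitochondrial import gene Tomm20 240.2 and 66.0 CPM (1.86, 0.75 to 3.23).

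Cell cycle genes had 0 higher and 2 lower of 17 tested, beside 13.4% higher and 7.44% lower of all genes tested. Their median was -0.20. Without the deepest member of each library the median turned to 0.35 over 13 genes, and as a mean over cells it was 0.048. Replication-linked histone genes filled much of the lower end. Hist1h2ae was 274 CPM in Trem2-/- and 764 CPM in Trem2+/+ members (-1.48, -1.94 to -1.02), from 5 cells in each library. Hist1h1d, Hist1h1b, Hist1h1c and Hist1h1e had log2 ratios of -1.51, -1.29, -1.43 and -1.08. Comparator cells differed the same way for Hist1h2ae, Hist1h1d and Hist1h1b, by -2.03, -1.39 and -1.15. Of genes seen in more cells, the tetraspanin gene Tspan13 was 173 CPM in Trem2-/- and 509 CPM in Trem2+/+ members (-1.56, -2.14 to -0.98), from 22 of 51 and 15 of 22 cells. The mRNA decay factor gene Zfp36l2 was 433 and 849 CPM (-0.97, -1.37 to -0.57; -0.48 without the 5% deepest T cells), from 42 and 21 cells, with a log2 ratio of 0.007 in comparator cells. Pitpna, Baz1b, Luc7l2, Skil and the nuclear lamina gene Lmnb1 were lower too, with log2 ratios between -1.48 and -0.97.

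**Figure D4:**
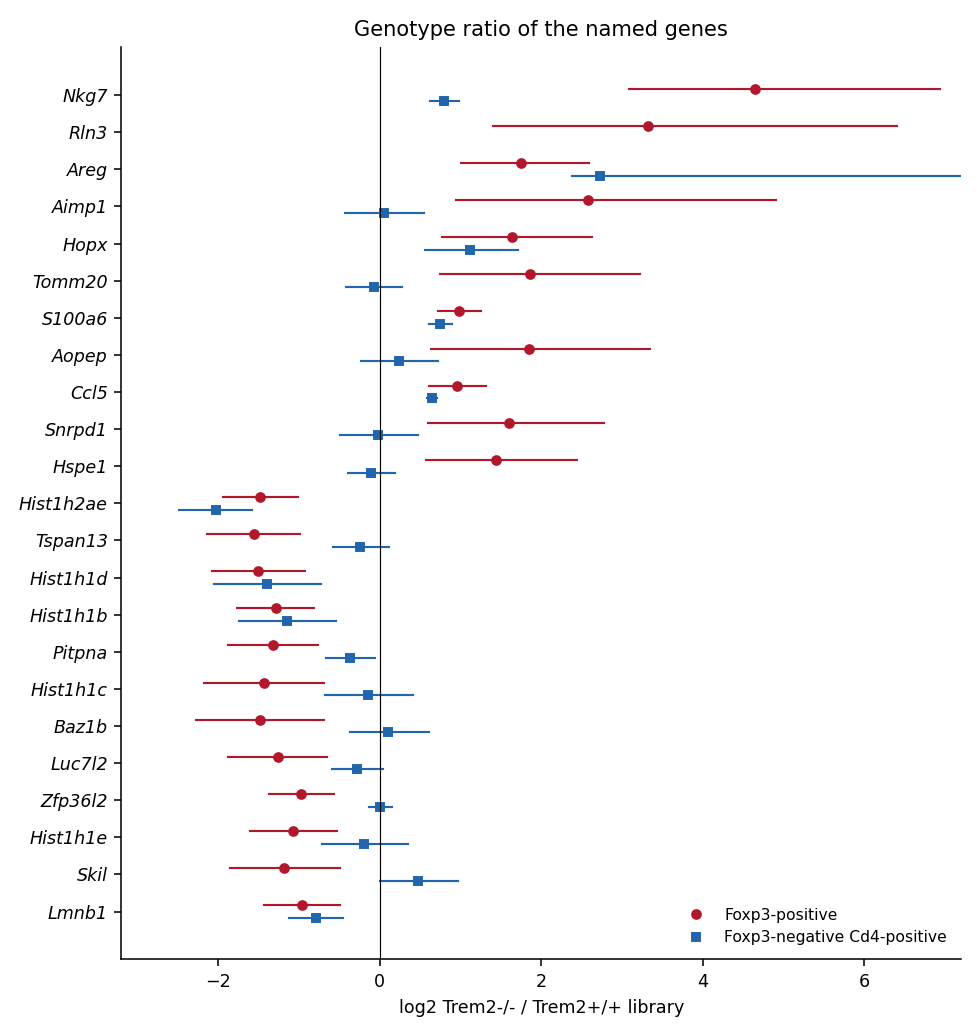
Log2 ratio of the Trem2-/- over the Trem2+/+ library for the genes named by the counting bound, in Foxp3-positive (red) and Foxp3-negative Cd4-positive T cells (blue), with 95% counting intervals. Nkg7 lies at 4.65 and 0.80, Aimp1 at 2.58 and 0.05, and Hist1h2ae at -1.48 and -2.03; Areg in Foxp3-negative cells is a bound set against 3 counts, and Rln3 has no value there because both counts were under 3.

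Rln3, which encodes the neuropeptide relaxin 3, was 189 CPM in Trem2-/- and 18.9 CPM in Trem2+/+ members, from 56 and 2 UMIs (3.33, 1.41 to 6.41). All came from 7 Trem2-/- cells and 1 Trem2+/+ cell, and in comparator cells 1 of 342 and 1 of 127 had a UMI. The gene lies at chr8:84042929-84045000, 339 bp from Il27ra at chr8:84030294-84042589 on the same minus strand, so that Rln3 ends just before Il27ra, the interleukin 27 receptor gene, starts. Il27ra was seen in 5 of the 7 Trem2-/- cells with Rln3 and in 26 of all 51. Aimp1, Aopep and Snrpd1, housekeeping genes of protein synthesis, peptide cleavage and splicing, were higher by 2.58, 1.84 and 1.60 and rested on 3, 6 and 9 Trem2+/+ UMIs.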

How the data were processed

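Liver CD45-positive cells of 1 pool of 4 mice per genotype were measured by 5′ single-cell RNA sequencing, with 1 library each and no replicate library. The authors deposited a filtered matrix of UMI counts per gene and barcode for each library, not normalized, on mm10 per the submitters' processing notes, and the file headers name Cell Ranger version 5.0.1. Counts by Cell Ranger combine each barcode's reads of 1 molecule, so reads of genes that overlap or share sequence may be lost or split. Of 32285 gene IDs, 32158 (99.6%) were found in GENCODE M21, which gave positions. All rows name a gene, and every column was mapped to a library.

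Barcodes were kept with 200 or more genes detected and no more than 10% of UMIs mitochondrial, and the gates of the text were applied to raw UMIs. Doublets were not called, and the gate removed only barcodes with UMIs of Cd79a, Cd8 or C1q beyond its limits. UMIs were summed per class and library and divided by the class total (CPM). CPM have exact Poisson intervals, log2 ratios exact conditional binomial intervals, and shares exact binomial (Clopper-Pearson) intervals, except that a ratio of shares has a large-sample interval. All are 95% intervals. A count of 0 was taken at a floor of 3 counts over the class for bounds. Cd8 T cells (at least 2 Cd8 UMIs), B cells, macrophages, neutrophils, monocytes and endothelial cells were gated by their own markers as backgrounds. The scripts were tested on simulated data. Python 3.11.15, NumPy 2.4.6, SciPy 1.17.1, pandas 2.3.3 and matplotlib 3.10.9 were used.

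Genes named were, for the cell comparison, the 15 highest and 10 lowest of those past 1.5-fold and, for the genotype comparison, the 12 highest and 12 lowest, ranked by the interval bound nearest 0, together with members of the gene lists. Gate genes, Trem2, receptor segments, haemoglobin, mitochondrial, ribosomal, sex-linked, hepatocyte and unnamed genes were left out of the ranking. Some genes these rules cover are not reported here. Also left out were genes below 0.2 of their level in another gated cell type. The members, gene lists and comparisons were chosen with earlier results of these data known. Counting intervals cover neither PCR nor mice, so no p-value was computed. Alternatives were stricter and looser barcode filters, at least 2 Foxp3 UMIs, no UMI of other lineages, dropping the 5% deepest T cells, weighting cells equally, median-of-ratios size factors, thinning to 1000 UMIs, a minimum of 10 UMIs, and comparators matched on UMIs or with at least 2 Cd4 UMIs. After the data were seen, 3 more were added, namely leaving out barcodes with markers of other types, the deepest member, or barcodes with an Mki67 or Top2a UMI.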

Additional observations from a re-analysis of the deposited data

Results flagged for a closer look

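Several genes went opposite ways in groups under the same contrast, which was not tested. Ly6a in Foxp3-positive over Foxp3-negative cells had a log2 ratio of 0.31 in the Trem2-/- library and -1.02 in the Trem2+/+ library, and Aimp1 had 0.74 and -1.80. For Trem2-/- over Trem2+/+, Ccr2 had a log2 ratio of -2.20 in Foxp3-positive and 0.82 in Foxp3-negative cells. Of its 43 Trem2+/+ UMIs, 26 lay in the barcode with dendritic cell markers, without which the level was 182 CPM, against 88.0 CPM in all Trem2-/- members; without all barcodes holding other-type markers the gene missed the count minimum. Cd40lg had -2.70 and 0.46, from 3 UMIs in Trem2-/- and 7 in Trem2+/+ members. Tnf had -1.65 and 0.88, from 8 UMIs in Trem2-/- and 9 in Trem2+/+ members, and Skil had -1.18 and 0.47. Each rests on few UMIs in the 22 Trem2+/+ members.

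Foxp3 UMIs also occurred in barcodes with no Cd3 UMI, which no comparison used. There were 17 in Trem2-/- and 16 in Trem2+/+, with medians of 3842 and 5963.5 UMIs. A single Foxp3 UMI was all that 13 and 15 of them had. At least 2 of Ctla4, Tnfrsf4, Tnfrsf18 and Il2ra were detected in 5 and 1, Ikzf2 in 5 and 2, and the myeloid gene Lyz2 in 9 and 10.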

How the results depend on the processing

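No paired analysis was possible because each genotype had 1 library, and no test was run. In every alternative that gave a value, 43 of 58 named genes kept their direction in the cell comparison and 35 of 42 in the genotype comparison; sparse genes had values in fewer alternatives. Of named values past 1.5-fold, 73 of 100 and 24 of 34 stayed past it in each alternative that gave one. The number of genes tested changed with the setting, so each pair of counts is given with it. In the cell comparison, 222 genes were higher and 173 lower of 3030 tested. The counts past 1.5-fold were 141 and 113 of 1698 with no UMI of other lineages, and 37 and 40 of 626 thinned to 1000 UMIs. They were 599 and 391 of 6612 at a minimum of 10 UMIs, and 70 and 34 of 1143 with comparators matched on UMIs. With at least 2 Cd4 UMIs they were 122 and 96 of 1813. In the genotype comparison, 166 genes were higher and 92 lower of 1236 tested. The counts were 70 and 27 of 555 without the 5% deepest T cells, and 23 and 4 of 188 thinned. They were 1274 and 1051 of 5508 at a minimum of 10 UMIs, and 62 and 80 of 532 with no UMI of other lineages. Leaving out barcodes with other-type markers, the deepest member of each library, or barcodes holding an Mki67 or Top2a UMI was chosen after seeing the data. Without the barcodes holding an Mki67 or Top2a UMI, 134 of 2118 genes tested were higher in the cell comparison. In the genotype comparison 70 were then higher and 23 lower of 489.

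Of values past 1.5-fold (in both libraries, for genes of the cell comparison), these directions turned, and the cause was not tested. With no UMI of other lineages (25 Trem2-/- and 9 Trem2+/+ members), the Trem2+/+ log2 ratios of Tnfrsf18, Gzmb, Fgl2 and S1pr1 were -0.36, -1.55, -1.43 and 0.11, the Trem2-/- lipid and sterol median was -0.41, and the genotype ratio of Lgals1 was -0.61. Without the 5% deepest T cells, Hist1h2ae had -0.63 in Trem2-/- and -0.063 in Trem2+/+, and in Trem2+/+ Mki67 had -0.0048, Batf -0.16, Top2a -0.95 and the cell cycle median -0.61. The Trem2-/- immediate-early median was 0.13 thinned and the Trem2-/- cell cycle median -0.24 without barcodes holding an Mki67 or Top2a UMI. Of values not past it, Cxcr3, Icos, Il7r, Maf, Pdcd1, Prdm1 and Rora in the cell comparison, and Capg, Ctla4, Icos, Mki67, Tnfrsf18 and Top2a between genotypes, also turned under at least 1 alternative, as did list medians, among them the Trem2-/- tissue effector median (-0.10 with no UMI of other lineages). Depth sets the floor: 3 counts are 10.1 CPM in Trem2-/- and 28.3 CPM in Trem2+/+ members.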

Other observations

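Xcl1, a chemokine gene of activated lymphocytes that attracts cross-presenting dendritic cells, had 81 UMIs in Trem2-/- and 0 in Trem2+/+ members, chosen for mention after its values were seen. The UMIs lay in 3 of 51 Trem2-/- cells, and 1 of them gave 66.7%. In Foxp3-negative Cd4-positive cells it had 200.2 CPM in Trem2-/- and 122 CPM in Trem2+/+ cells.

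The survival cytokine receptor gene Il7r, which regulatory T cells often hold low, was detected together with Il2ra in 18 of 51 Trem2-/- and 10 of 22 Trem2+/+ members. Its level was 372 CPM in Foxp3-positive and 707 CPM in Foxp3-negative Trem2-/- cells, against 405.5 and 601 CPM in Trem2+/+ cells.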
